A study of Mus musculus with 7 samples.

Results

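The oligoadenylate synthetase (OAS) family was examined in heart ventricles of mice that model myocarditis caused by immune checkpoint inhibitors (ICI). All 8 family genes chosen by name, Oas1a, Oas1b, Oas1c, Oas1g, Oas2, Oas3, Oasl1 and Oasl2, had a row among the 23420 genes of the table. Total RNA was sequenced as paired 150-base reads in 4 control libraries, labelled Ctla4+/+;Pdcd1-/-, and 3 ICI-myocarditis libraries, labelled Ctla4+/-;Pdcd1-/-. Mice of both groups received no treatment and were aged 3 to 6 weeks. Both groups therefore lacked Pdcd1 by label, and no animal with intact Pdcd1 was measured. The mice carry inherited alleles in place of a drug, and the tissue is named both as whole heart and as ventricle in the labels. The strain and how the alleles were made are not given in the sources used here. Nor do the labels say that each library came from a separate animal, so p-values measure only the spread between these libraries, which may be technical.

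OAS enzymes sense double-stranded RNA. On binding it they join ATP into short adenylate chains with an unusual 2'-5' linkage, known as 2-5A, and these chains act as a signal in the defence against viruses. The genes are classic targets of interferon, and many such targets carry the interferon-stimulated response element (ISRE) in their promoters. Targets of interferon-gamma often carry the gamma-activated site (GAS). OAS-like proteins carry ubiquitin-like domains behind the synthetase fold.

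The family lies at 2 places on mouse chromosome 5 (GRCm38, GENCODE M21). Oasl2 (114896936 to 114912234) and Oasl1 (114923240 to 114937915) are neighbours on the plus strand. The second locus, 5.79 Mb further on, runs from 120730333 to 120921652 and holds Oas2, Oas3 and all Oas1 genes. Oas1c (minus strand, 120800194 to 120812514) and Oas1b (plus strand, 120812635 to 120824163) start back to back, with 120 bases between them. Oas1b is annotated as a polymorphic pseudogene, and it is known to be intact in some mouse strains and truncated in others.

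The stretches just before the gene starts are shown because they carry the letters of the ISRE core (GAAA, any 2 bases, then GAAA again) in 4 of the 6 members with a RefSeq promoter window. Each is given 5′ to 3′ on the gene's own strand (RefSeq, GRCm38.p6), with exact ISRE core matches on either strand in capitals.
Oas1a, chr5:120907528-120907625, minus strand: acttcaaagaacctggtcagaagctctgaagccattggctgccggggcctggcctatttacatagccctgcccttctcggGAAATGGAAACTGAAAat
Oas1g, chr5:120887616-120887713, minus strand: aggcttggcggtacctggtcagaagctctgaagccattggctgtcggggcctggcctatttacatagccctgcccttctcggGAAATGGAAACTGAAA
Oas1c, chr5:120812515-120812634, minus strand, all bases between Oas1c and Oas1b: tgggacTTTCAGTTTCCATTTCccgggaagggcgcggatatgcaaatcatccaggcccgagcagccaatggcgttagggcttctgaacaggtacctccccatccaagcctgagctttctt
Oas3, chr5:120777662-120777759, minus strand: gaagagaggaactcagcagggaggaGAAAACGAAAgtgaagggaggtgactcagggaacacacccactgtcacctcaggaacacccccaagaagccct
Oasl1, chr5:114923140-114923237, plus strand: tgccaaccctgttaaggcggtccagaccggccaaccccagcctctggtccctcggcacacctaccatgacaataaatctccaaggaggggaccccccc
Oasl2, chr5:114896834-114896931, plus strand: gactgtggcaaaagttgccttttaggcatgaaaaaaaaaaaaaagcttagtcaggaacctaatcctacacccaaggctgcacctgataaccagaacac

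Oas1a and Oas1g held the same run of 16 bases, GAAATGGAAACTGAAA, made of 2 overlapping core matches. It lay 20 to 5 bases before the start of Oas1a and 18 to 3 bases before that of Oas1g. The same run stood on the opposite strand between Oas1c and Oas1b (chromosome 5, 120812613 to 120812628). Counted from the Oas1b start it lay 22 to 7 bases upstream in the direction of Oas1b, and counted from Oas1c it lay 114 to 99 bases upstream. Of 32851 promoter windows of 300 bases (250 before and 50 after the start) over all genes, 7 held this run, and the genes were Oas1a, Oas1c, Oas1g, Apol9a and Apol9b. Oas3 had a single core match of other letters, GAAAACGAAA, 75 to 66 bases before its start. The ISRE core was found on either strand in 3.44% of all windows. No exact match stood in the windows of Oasl1 and Oasl2. With 1 mismatch allowed, all 6 members and 35.4% of all windows matched. The GAS letters (TTC, any 3 bases, then GAA), which read the same on both strands, occurred in Oas1a alone of the 6 members and in 8.30% of all windows.

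**Figure D1:**
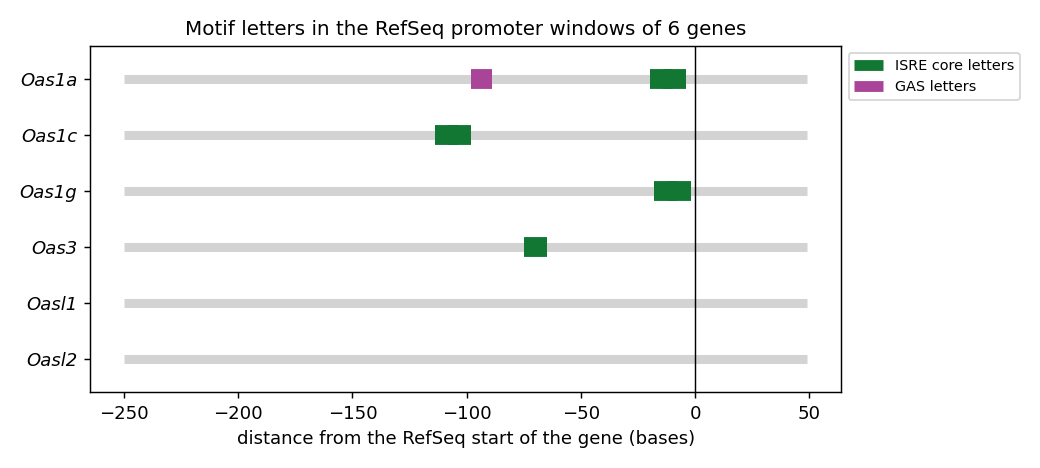
Positions of exact ISRE core (green) and GAS (purple) letters in the RefSeq promoter windows of 6 members; the horizontal axis is the distance in bases from the gene start, at 0, and the grey bars are the 300-base windows. The ISRE letters lie within 20 bases of the start in Oas1a and Oas1g, further upstream in Oas3 and Oas1c, and no match is drawn for Oasl1 and Oasl2.

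Recovered totals ran from 20931730 to 39037176 reads per library. The tissue label matched its markers, since all 8 cardiomyocyte genes listed were detected and their sum was 1799250 to 4796840 normalized counts, which are reads scaled by a size factor for each library. The targeted genes do not check the labels, because reads of a disrupted allele can still be counted to the gene. Ctla4 had 29.2, 113, 69.2 and 41.3 normalized counts in the controls, numbered 1 to 4, against 282, 251 and 373 in ICI-myocarditis 1 to 3. Pdcd1 lay at 9.07, 244, 3.35 and 2.50 in controls and at 1481, 1096 and 1340 in ICI-myocarditis, despite the Pdcd1-/- label. Among the genes called higher in ICI-myocarditis, control 2 was often the highest control. It was so in 1326 of these 1787 genes (74.2%), a share that was not counted over all genes tested. The fold change of each member is therefore given with and without control 2.

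All 8 members passed the filter on low values, and each had at least 10 normalized counts in all 4 controls. Of these, 5 rose in ICI-myocarditis (Oas3, Oasl2, Oas1g, Oas1a and Oasl1), none fell and 3 (Oas1c, Oas1b and Oas2) did not pass (limma, adjusted p under 0.05 over 15258 genes tested). Over all genes tested, 11.7% were called higher. The median log2 fold change of the members was 1.65, beside -0.02 for all genes tested, and all 8 values were above 0, each with an unadjusted limma p under 0.05, as for 17.7% of all genes tested in this direction. In 6 members every ICI-myocarditis library lay above every control, as in 17.3% of all genes tested. On the recovered reads edgeR called 4 members higher (10.1% of all genes) and DESeq2 6 (14.2%). Without control 2, limma called all 8 members higher, beside 14.9% of all genes. Control 2 was the highest control for all 8 members, so leaving it out had to raise every member's fold change. The calls without control 2 are therefore no independent support. In ventricles, more cells that express a gene and more RNA per cell cannot be told apart.

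**Figure D2:**
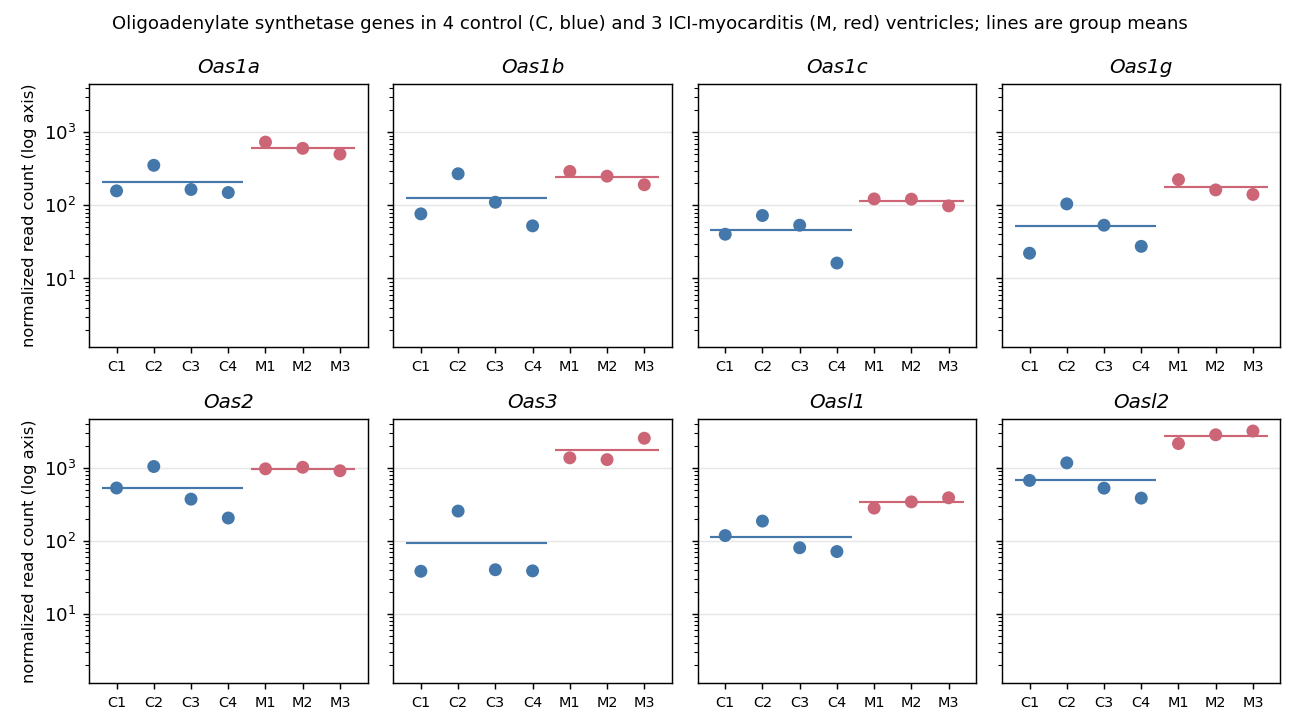
Normalized read counts (log axis) of the 8 genes in each library; blue points are the 4 controls (C1 to C4), red points the 3 ICI-myocarditis libraries (M1 to M3), and lines the group means. The groups do not overlap in 6 panels, while control 2 reaches the ICI-myocarditis range in Oas1b and Oas2.

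Oas3 encodes the largest synthetase, with tandem copies of the OAS fold, and is known to respond to long double-stranded RNA. In controls 1 to 4 it had 38.3, 255, 40.2 and 38.8 normalized counts, and in ICI-myocarditis 1 to 3 it had 1367, 1292 and 2535. The lowest ICI-myocarditis library lay far above the highest control. The mean went from 93.2 ± 108 (SD, n = 4) to 1731 ± 697 (SD, n = 3), 18.6 times as high. The log2 fold change was 4.69 (SE 0.641, limma adjusted p = 0.00374), the 90th highest of 15258. The control mean is set largely by control 2, which was 6.53 times the mean of the other controls. Without control 2 the log2 fold change was 5.36 (SE 0.288, limma adjusted p = 1.09e-05).

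Oas1a encodes an active single-unit synthetase. Its normalized counts were 158, 354, 165 and 150 in controls and 736, 604 and 504 in ICI-myocarditis. Controls 1, 3 and 4 lay close together and control 2 was between them and the ICI-myocarditis libraries. Oas1a rose by a log2 difference of 1.65 (SE 0.324, adjusted p = 0.0103 by limma) and passed under all 19 alternatives. Without control 2 the value for Oas1a was 1.94 (adjusted p = 0.000317 by limma).

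Oas1g, the nearest relative of Oas1a, lay at 22.2, 105, 53.6 and 27.5 normalized counts in controls and at 225, 163 and 141 in ICI-myocarditis. The groups did not overlap. Oas1g rose by a log2 difference of 1.98 (SE 0.514, adjusted p = 0.0310 by limma), or 2.40 without control 2 (adjusted p = 0.00226 by limma). This call held under 10 of 19 alternatives (adjusted p from 0.00226 to 0.09998). It was lost when any library other than control 2 was left out (limma adjusted p from 0.0566 to 0.09998), and edgeR's quasi-likelihood test gave an adjusted p of 0.0606. Reads of the pair are hard to separate. Of all 150-base stretches of the longest Oas1a transcript, 32.4% occurred unchanged in an Oas1g transcript, and 30.1% of those of Oas1g in Oas1a. None of the other 6 members shared such a stretch with another gene, so the values of Oas1a and Oas1g are uncertain if shared reads were divided between them.

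Oas1c was the lowest of the members in ICI-myocarditis. Its normalized counts were 40.3, 72.8, 53.6 and 16.3 in controls and 123, 122 and 98.6 in ICI-myocarditis, with no overlap. The log2 fold change was 1.48 (SE 0.478) and did not pass (limma adjusted p = 0.0674). DESeq2 on the recovered reads gave an adjusted p of 0.0230 and limma without control 2, at a log2 fold change of 1.76, one of 0.0209, while the range over 19 alternatives was 0.00983 to 0.172.

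Oas1b is the gene known for resistance of mice to flaviviruses where it is intact. Its normalized counts were 76.6, 271, 111 and 52.5 in controls and 292, 251 and 192 in ICI-myocarditis. Control 2 exceeded ICI-myocarditis 2 and 3. For Oas1b the log2 fold change was 1.19 (95% interval 0.07 to 2.32) and did not pass (limma adjusted p = 0.144), whereas without control 2 it passed at 1.65 (limma adjusted p = 0.00732). A gene total cannot tell transcripts of the intact form from those of the truncated one.

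Oas2, a synthetase with a pair of OAS units, lay at 528, 1040, 372 and 205 normalized counts in controls and at 967, 1015 and 910 in ICI-myocarditis. Control 2 was the highest of all 7 libraries, and the ICI-myocarditis libraries were closer to each other (SD 52.7) than the controls (SD 361). The log2 fold change of 1.09 (95% interval 0.06 to 2.11) did not pass (limma adjusted p = 0.144). Without control 2 it was 1.49 (SE 0.321, limma adjusted p = 0.0110).

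Oasl1 encodes an OAS-like protein known in mice to restrain translation of Irf7. Its normalized counts were 118, 186, 80.4 and 71.3 in controls and 280, 341 and 388 in ICI-myocarditis, with no overlap. Oasl1 rose by a log2 difference of 1.64 (SE 0.348, adjusted p = 0.0137 by limma) and passed under 17 of 19 alternatives. With control 2 left out, Oasl1 had a value of 1.91 (adjusted p = 0.00120 by limma).

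Oasl2, an OAS-like protein that keeps synthetase activity, lay at 670, 1167, 526 and 384 normalized counts in controls and at 2144, 2826 and 3182 in ICI-myocarditis. The groups did not overlap. Oasl2 rose by a log2 difference of 2.09 (SE 0.348, adjusted p = 0.00597 by limma) and passed under all 19 alternatives. With control 2 left out, Oasl2 had a value of 2.38 (adjusted p = 0.000253 by limma).

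The authors' deposited table gave 6 of the 8 members an adjusted p below 0.05, beside 12.9% of its genes called higher. Oas1b and Oas2 were above the threshold there (adjusted p = 0.202 and 0.210). The log2 fold change of Oas3 in the authors' deposited table was 4.22 (SE 0.652).

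**Figure D3:**
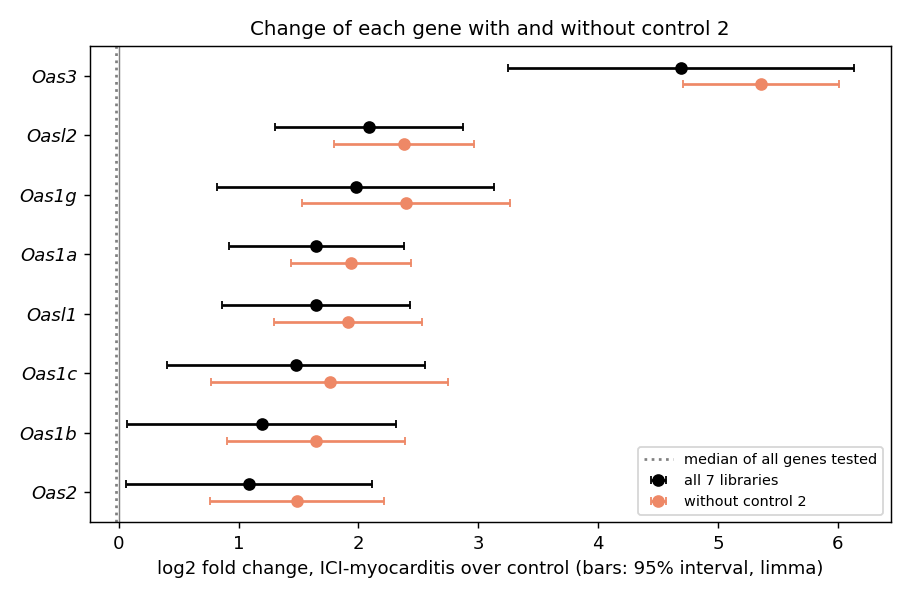
Log2 fold change of ICI-myocarditis over control for each member with its 95% interval from limma, from all 7 libraries (black) and without control 2 (orange); the dotted line is the median of all genes tested. Oas3 lies at 4.69 and the other members between 1.09 and 2.09. Every value is higher without control 2, which had to follow because control 2 was the highest control for every member.

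Control 2 was the highest control for all 8 members. The excess over the mean of the other controls was 6.53-fold for Oas3, 3.04-fold for Oas1g and 2.82-fold for Oas2, and between 1.98-fold and 2.24-fold for Oas1a, Oas1c, Oasl1 and Oasl2. Oas1b had 271 normalized counts in control 2 against a mean of 79.9 in the other controls. Oas1b and Oas2 were as high in control 2 as in ICI-myocarditis, while Oas3 in control 2 was well below its level in any ICI-myocarditis library. Marker lists did not all stand apart in control 2. The 8 T cell genes summed to 1739 normalized counts in control 2, 130 to 214 in the other controls and 7596 to 11673 in ICI-myocarditis. All 8 of them were called higher by limma, beside 11.7% of all genes tested. Control 2 was also the highest control in the sums of endothelial genes (80619, against at most 69390 in the other controls) and NK cell genes (174, against at most 35.7), and in those of neutrophil (215 against 171) and plasmacytoid dendritic cell genes (155 against 90.4). It had the lowest cardiomyocyte sum (2369810). It was not the highest control for B cell, fibroblast and skeletal muscle genes. The part of these cells in the levels of the members was not tested.

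The 3 ICI-myocarditis libraries did not rank the members alike. Oas1a, Oas1b, Oas1c and Oas1g were highest in ICI-myocarditis 1 and lowest in ICI-myocarditis 3. Oasl1 and Oasl2 ran the other way, lowest in ICI-myocarditis 1 and highest in ICI-myocarditis 3, and Oas3 was also highest in ICI-myocarditis 3. Oas2 was nearly level. With 3 libraries this is a description, without a test. Across all 7 libraries the neighbours Oasl1 and Oasl2 had the most similar profiles of any pair of members, with a root mean square difference of 0.24 between their centred log2 values. Oas2 and Oas3 were furthest apart, at 1.88.

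**Figure D4:**
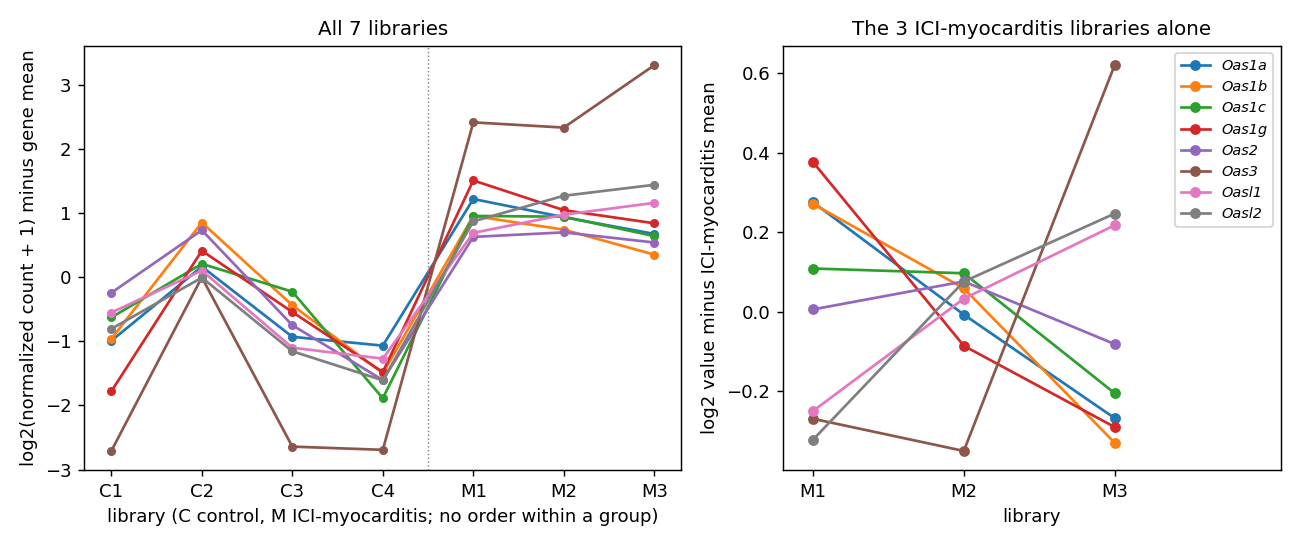
Centred log2(normalized count + 1) values of the 8 members over all 7 libraries (left) and over the 3 ICI-myocarditis libraries alone (right); lines join the values of a gene and imply no order of libraries. Oas3 spans the widest range, control 2 is the highest control for every member, and the Oas1 genes and the Oasl genes rank the ICI-myocarditis libraries in opposite ways.

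Whether members changed by different amounts was tested on the ratio of each pair within libraries. Over 28 pairs, limma called 7, and these were the 7 pairs with Oas3. A ratio to Oas3 was called for 96.8% of all genes tested, so a call against Oas3 is near the background. The share of all genes called was 83.5% against Oas1a, 15.4% against Oas1b, 58.3% against Oas1c, 79.1% against Oas1g, 16.3% against Oas2, 82.9% against Oasl1 and 88.7% against Oasl2. The difference in log2 fold change was smallest in size for Oas3 over Oasl2, at 2.61 (SE 0.961, limma adjusted p = 0.00705). For this pair the unadjusted exact permutation p was 0.0571, above the smallest possible value. The difference was largest for Oas2 over Oas3, at -3.61 (SE 0.943, limma adjusted p = 0.000149, unadjusted exact permutation p = 0.0286). The mean log2 ratio of Oas3 to Oasl1 was -0.75 in controls and 2.30 in ICI-myocarditis. In all 7 pairs the ratios of the 2 groups did not overlap, and the same count of 7 was called without control 2. The share of all genes for either count is not given here, so neither can be weighed against the background. Limma's spread for a ratio is shared by all genes measured against the same reference, which the method treats as independent. An exact permutation test of the group labels (two-sided, 35 arrangements) gave its smallest possible p, 0.0286, for 8 of the 28 pairs, and 0 pairs passed after adjustment over the pairs (smallest 0.1). At this number of libraries 17 pairs would have to reach the smallest p before any could pass, so the adjusted exact test could hardly call a pair.

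Of those 8 pairs, Oasl1 with Oasl2 and Oas2 with Oasl2 did not involve Oas3. The log2 ratio of Oasl1 to Oasl2 was between -2.69 and -2.41 in controls and between -3.05 and -2.93 in ICI-myocarditis (difference -0.44). That of Oas2 to Oasl2 averaged -0.48 in controls and -1.48 in ICI-myocarditis (95% interval of the difference -2.35 to 0.35). Neither passed limma's test of the ratio (adjusted p = 0.280 and 0.222). For Oas1a and Oasl1 the difference was 0.00 (95% interval -0.91 to 0.91), an interval that leaves room for nearly a 2-fold difference in either direction.

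**Figure D5:**
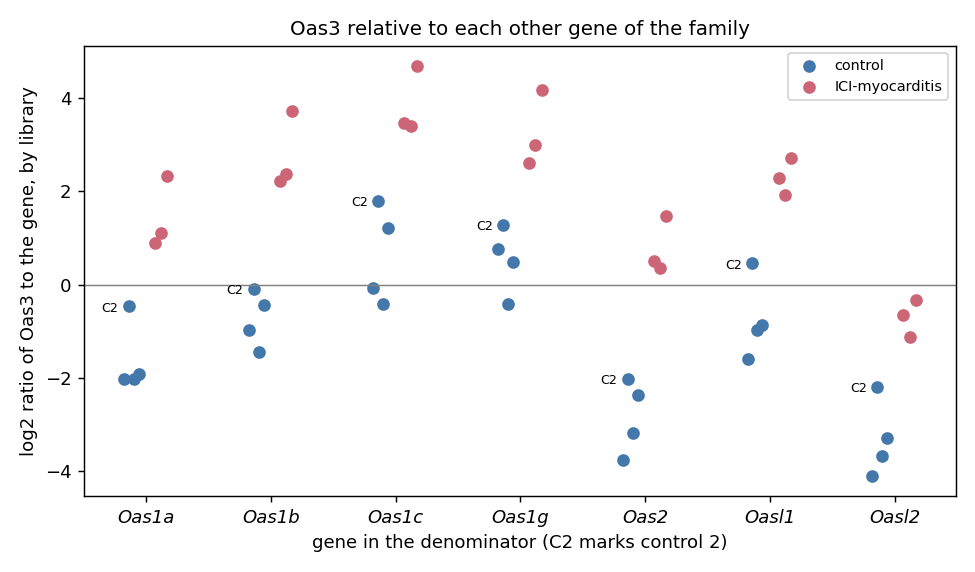
Log2 ratio of Oas3 to each other member within each library (vertical axis); blue points are controls, red points ICI-myocarditis libraries, and C2 marks control 2. In all 7 columns the ICI-myocarditis points lie above the controls, and control 2 is the highest control in each.

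Levels were compared between members per kb of the longest transcript. In controls Oasl2 had the highest mean, at 220 ± 109 normalized counts per kb (SD, n = 4). Oas2 (135 ± 91.1) and Oas1a (110 ± 52.1) came next. Oas1b (69.6 ± 53.7) and Oasl1 (52.3 ± 24.0) were in the middle. Oas1g (26.3 ± 19.1), Oas1c (20.0 ± 10.4) and Oas3 (19.7 ± 22.9) were the lowest. The ranges of every pair of neighbours in this order overlapped. Without control 2 the order was the same, but the means were lower, most of all for Oas3 at 8.28 ± 0.208, for Oas1b at 43.5 ± 15.9, and for Oas1g at 17.4 ± 8.50 (SD, n = 3). In ICI-myocarditis Oasl2 was again the highest, at 870 ± 169, and Oas3 came second at 367 ± 148 (SD, n = 3). Oas1a followed at 326 ± 61.6, then Oas2 at 243 ± 13.3, Oasl1 at 154 ± 24.8, Oas1b at 133 ± 27.3, Oas1g at 89.3 ± 22.0 and Oas1c at 49.9 ± 5.98. Here Oasl2 lay clear of Oas3, Oas1a of Oas2, Oas2 of Oasl1 and Oas1g of Oas1c, while the other neighbours overlapped. Oas3 thus went from the lowest of the 8 to the second. With the union of all annotated exons as length, Oas3 went from the lowest to the third, and the control order began with Oas2 (120 per kb), Oas1a (110) and Oasl2 (108).

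The 4 remaining genes of the Oas1 cluster gave few reads. Oas1d was at 0 in all 7 libraries, and Oas1e and Oas1f had at most 4 reads in any. Oas1h, at 2.02, 22.2, 3.35 and 2.50 normalized counts in controls and 8.19, 16.7 and 14.5 in ICI-myocarditis, was highest in control 2 and did not pass (limma adjusted p = 0.303).

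The wider 2-5A and double-stranded RNA sensing list had 6 of 14 genes called higher and none lower, with a median log2 fold change of 0.86, beside 11.7% of all genes called higher. Without control 2 limma called 8 higher, beside 14.9% of all genes, and 1 lower. The edgeR fit with all libraries called 4 higher, beside 10.1% of all genes. With all 7 libraries, genes for enzymes that remove 2-5A were not called. The log2 fold change was 0.19 for Pde12, which degrades 2-5A, and -0.76 for Akap7, which holds a domain with the same activity (limma adjusted p = 0.603 and 0.0819). Without control 2, Akap7 was the gene called lower, at -0.87, and Pde12 did not pass at 0.07 (limma adjusted p = 0.0455 and 0.840). Among other sensors Zbp1 rose by 4.57, Dhx58 by 2.06, Tlr3 by 1.07, Ifih1 by 1.23 and Eif2ak2 by 1.03 (limma adjusted p from 0.00376 to 0.0366). The adaptor gene Mavs had a log2 fold change of -0.42 (limma adjusted p = 0.429).

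Mb21d1, a relative by its OAS-like fold, encodes the DNA sensor cGAS and rose by 1.66 (limma adjusted p = 0.0127). Tmem173, listed with it as the gene of its adaptor STING, rose by 2.06 (limma adjusted p = 0.0121). Mb21d2, another relative of the fold, had a log2 fold change of -0.34 (limma adjusted p = 0.270). All 4 listed genes of the ISG15 system, which are only a part of it, were called higher by limma, and 3 by edgeR. Over all genes tested these shares were 11.7% and 10.1%. Isg15 rose by 2.33, Herc6 by 2.56, Usp18 by 1.97 and Uba7 by 1.68 (limma adjusted p from 0.00871 to 0.0383). All 4 also passed without control 2, where Herc6 had 3.06 and Isg15 2.72 (limma adjusted p = 0.000117 and 0.000331).

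Among 17 genes of interferon receptors and signalling, 7 were called higher and none lower (10 higher without control 2, and 6 by edgeR). Over all genes tested, 11.7% were called higher (14.9% without control 2, and 10.1% by edgeR). Stat2, which encodes a part of the factor that binds the ISRE, rose by 1.67 (limma adjusted p = 0.0240). Irf9, which encodes another part of it, had a log2 fold change of 0.76 and did not pass (limma adjusted p = 0.0621), but passed without control 2 at 0.95 (limma adjusted p = 0.00861). Irf8 rose by 3.04, Irf7 by 2.47, Irf1 by 2.29, Irf2 by 0.89 and Jak2 by 0.82. Receptor genes showed no call with all 7 libraries, with Ifnar1 at 0.58 and Ifngr1 at 0.31 (limma adjusted p = 0.0841 and 0.367). Without control 2, Ifnar1 alone of them passed, at 0.68, and Ifnar2 just missed at 0.59 (limma adjusted p = 0.0386 and 0.0504). Irf3 and Jak1 lay at -0.06 and -0.02 (limma adjusted p = 0.896 and 0.954).

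Of 21 interferon ligand genes listed, 19 had a row and Ifng alone passed the filter. Ifng lay at 2.02, 55.5, 4.47 and 0 normalized counts in controls and at 244, 283 and 583 in ICI-myocarditis, and rose by a log2 difference of 5.96 (SE 1.14, adjusted p = 0.00935 by limma), or 7.08 without control 2 (adjusted p = 0.000107 by limma). Like the family, it was highest among controls in control 2. Among the type I and type III ligand genes, 11 were at 0 in all 7 libraries, and Ifnb1 had at most 1.45 normalized counts in any. Ifnk had at most 9.87 and Ifnz at most 8.19. These ligands fell below the filter on low values, so a difference between the groups was not tested.

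Marker lists of other cells differed between the groups beside the members. Over all genes tested, limma called 11.7% higher and 4.0% lower. The share higher was 14.9% without control 2 and 10.1% by edgeR. All 9 macrophage and monocyte genes with a row were called higher, and their sum went from 14529 to 19257 normalized counts in controls to 54909 to 83645 in ICI-myocarditis. Control 2 had the highest sum of the controls, and the next control was close to it at 19168. Among 8 cardiomyocyte genes the median log2 change was -0.79 and limma called 0 (edgeR also 0, and 2 lower at an unadjusted limma p under 0.05). Without control 2, limma called 1 of them lower, Ryr2 at -1.47 (limma adjusted p = 0.0180). Of 8 endothelial genes, 4 were called lower, with and without control 2. Of 4 plasmacytoid dendritic cell genes, 3 were tested and 0 called by limma or edgeR (also 0 at an unadjusted limma p under 0.05), with sums of 27.5 to 155 in controls and 80.4 to 131 in ICI-myocarditis. NK cell genes had 1 of 3 tested genes called higher (2 without control 2, and 0 by edgeR), and Klra8 was at 0 in all libraries. B cell, neutrophil and skeletal muscle lists each had 1 gene called higher (of 4, 3 and 2 tested) and fibroblast genes had 2 of 6. The part of these cells in the family's levels was not tested.

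By the smallest root mean square difference of centred log2 values over the 7 libraries, the genes nearest to the mean profile of the members were Espl1 (0.10), Tonsl (0.15), Troap (0.15), Parp14 (0.16), Parp10 (0.17) and Trim30d (0.18). Nearest to Oas3 was Spp1 (0.18, log2 fold change 4.58), nearest to Oasl2 was Nup210 (0.08) and nearest to Oasl1 was Xdh (0.12). The nearest genes were Bard1 for Oas1a (0.17), Pvt1 for Oas1g (0.15), Ska3 for Oas2 (0.16), Snord72 for Oas1c (0.19) and Rad54b for Oas1b (0.20). Apol9a and Apol9b, the other genes with the 16-base run of Oas1a, rose by 6.10 and 5.22 on the log2 scale (SE 0.726 and 0.531, limma adjusted p = 0.00285 and 0.00251). They were singled out after the motif search and are close copies of each other.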

How the data were processed

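Gene expression was read from 1 deposited table of 23420 gene rows. Its library columns hold a signal, which the values show to be whole reads that the authors scaled by a size factor for each library. STAR 2.7.3 and the build GRCm38 (mm10) are named in the submitters' processing notes. The counting program, its use of strand and the annotation are not given in the sources used here. Per the file headers, the table also holds the authors' log2 fold change with its SE, a score (the statistic of their test) and p-values before and after adjustment.

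In all 7 libraries 100% of values were whole multiples of the smallest step (within 0.01), which returned reads. For control 1 the step was 1.01, so wholeness is a weaker sign there. Recovered totals ran from 20931730 to 39037176 reads.

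The principal test was limma 3.58.1, run in R 4.3.3 with trend and robust variance on log2 values after adding a pseudocount of 1. Genes needed 10 or more normalized counts in 3 or more libraries. It used Benjamini-Hochberg adjustment over all genes tested at a threshold of 0.05. The pseudocount of 1 shrinks differences of low genes. The fold change is a difference of mean log2 values, so it can exceed the log2 ratio of the means where 1 control is high. Ratios between members were fitted in the same way for every gene against each member, and the larger of the 2 adjusted p-values was kept. edgeR 4.0.16 and DESeq2 1.42.0 on recovered reads, limma-voom, other scalings, filters and pseudocounts, and leaving out each library were alternatives. A limma fit with a block for the replicate number was another. The exact permutation test of ratios and, for levels per kb, the exon union length and leaving out control 2 were added after seeing the data. The tests were checked on simulated counts, where the ratio fit made more wrong calls than its threshold allows (14.4% against 5%). The group fits of limma and edgeR did not (1.7% and 4.8%). A limma p for a ratio may therefore be too small, and an exact permutation p was also computed for each pair.

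Promoter windows came from RefSeq (GRCm38.p6), which held windows for 6 of the 8 genes, and gene positions and transcripts from GENCODE M21 (GRCm38). A planned protein comparison was not made. The members and gene lists were chosen with earlier results of these data known. The genes named are the 8 members, genes of the fixed lists, and those nearest in profile by the smallest root mean square difference of centred log2 values. Apol9a and Apol9b were chosen after the motif search. Some genes counted in the lists are not reported by name here.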

Additional observations from a re-analysis of the deposited data

Results flagged for a closer look

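In the 4 controls, 2 members had 1 library far from the other 3 on the log2 scale, and it was control 2 on the high side in both. The gap between control 2 and the next control was 0.975 of the controls' whole range for Oas3 and 0.888 for Oas1a, above Dixon's 95% critical value for 4 samples. Chance flags about 1 in 20 groups, and 8 members, which share the same libraries, were examined.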

How the results depend on the processing

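Every member's log2 fold change was above 0 under all 19 alternatives. The count of members called higher, 5 in the principal fit, became 8 with limma-voom and quality weights. It ran from 3 to 8 when each library was left out in turn, at 8 without control 2 and at 3 without ICI-myocarditis 2 or ICI-myocarditis 3. Genes called over the whole table ran from 986 to 3340 in the same way (higher: 829 to 2252), with the lowest counts without ICI-myocarditis 3. Genes called higher numbered 1064 without ICI-myocarditis 2 and 2252 without control 2. Limma-voom called 4003 genes, of which 2485 were higher. Of the genes called, 74.6% were higher in the principal fit, and this share ran from 62.1% (limma-voom) to 86.4% (without control 3), with 62.8% by DESeq2 and 84.3% when scaled by library size only. Without ICI-myocarditis 2 and without ICI-myocarditis 3, Oasl1 missed the threshold (limma adjusted p = 0.0511 and 0.0639). Scaling by library size only moved the median log2 fold change of all genes from -0.02 to 0.13 and that of the members from 1.65 to 1.81. The replicate block, a term for the library number in the fit, called 4 members, 1780 genes (1391 higher) and 5 pairs. Control 4 has no ICI-myocarditis library of its number. The members' fold changes therefore equalled those without control 4 (Oas3 at 4.47 in both), so the block is not a separate check of them. Oas1g was the member lost (limma adjusted p = 0.0562), and Oas1g and Oasl2 against Oas3 were the pairs lost (limma adjusted p = 0.0995 and 0.0786). Correlations between same-numbered libraries of the 2 groups were -0.271, -0.206 and -0.0784. These values show no likeness by number, but so few libraries cannot exclude a pairing. The exact permutation test of each pair gave 0 called pairs in place of 7, but 17 pairs would have to reach its smallest p before any could pass, so this says nothing about stability. Depth limits what can be said of Oas1d, Oas1e, Oas1f and the type I interferon genes.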
